A study of Mus musculus with 10 samples.

Results

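The genes described here handle iron and heme in bleomycin-injured mouse lung. They are 7 of the 33347 genes in the count table and were taken by symbol: the ferritin chains Fth1 and Ftl1, the uptake receptor Tfrc, the exporter Slc40a1, the heme-degrading enzyme Hmox1, the ferroxidase Cp and the phagosomal metal transporter Slc11a1. RNA came from 10 lung tissue samples of wild-type mice that all had received bleomycin, a compound that breaks DNA and scars lung tissue. In 5 samples the mice had been injected with bone marrow cells of high aldehyde dehydrogenase activity (ALDHbr), and in the other 5 with bone marrow cells of low activity (ALDHdim). The column names of all 10 libraries carry the tag iv, which is not explained there. The sources used here do not give strain, age, sex or the times of injection and sampling. Uninjured lungs and injured lungs without transferred cells were not analysed here, which leaves the other transfer group as the only reference. Samples are numbered within each group, but the labels do not state that each number is its own mouse. The p-values then reflect only the spread among these 10 samples, which may be technical.

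Iron is stored in the cytosol inside ferritin, a hollow shell built from heavy chains, which oxidise iron, and light chains, which help it mineralise. Cells import iron by binding transferrin to the transferrin receptor, and release it through ferroportin, the product of Slc40a1, helped by ferroxidases such as ceruloplasmin. In the lung, macrophages that take up red cells free iron from heme through heme oxygenase 1. When iron is scarce, the iron regulatory proteins bind a short RNA hairpin, the iron responsive element, which blocks translation when it lies in a 5′ untranslated region (UTR) and protects the transcript from decay when it lies in the 3′ UTR.

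Matches to the letters of that hairpin are shown because some members held one and others did not. A search of the GENCODE M21 transcripts (GRCm38), on the transcript strand only, used the motif CNNNNNCAGTGNNNNNN with the 5 bases on either side of the loop CAGTGN able to pair, G with T included. The loop is in capitals, in DNA letters, 5′ to 3′. Fth1 (chr19:9982732-9982760, + strand), Ftl1 (chr7:45459779-45459807, − strand) and Slc40a1 (chr1:45925465-45925493, − strand) each held 1 match in the 5′ UTR. Tfrc held 4 matches in the 3′ UTR on the + strand of chromosome 16, at chr16:32631219-32631247, chr16:32631598-32631626, chr16:32631663-32631691 and chr16:32631710-32631738. The labels site A to site D below only order these 4 matches by position and are not published names of elements. Hairpins with other loop letters would be missed in any member, Tfrc included. No match to the motif was found in Hmox1, Cp or Slc11a1.
Fth1, 5′ UTR: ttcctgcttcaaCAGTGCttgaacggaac
Ftl1, 5′ UTR: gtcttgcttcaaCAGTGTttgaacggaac
Slc40a1, 5′ UTR: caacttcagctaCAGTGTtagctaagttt
Tfrc, 3′ UTR, site A: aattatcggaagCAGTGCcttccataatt
Tfrc, 3′ UTR, site B: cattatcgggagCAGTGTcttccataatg
Tfrc, 3′ UTR, site C: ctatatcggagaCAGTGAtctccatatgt
Tfrc, 3′ UTR, site D: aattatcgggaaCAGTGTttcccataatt
Of 21901 genes with protein-coding transcripts, 0.142% held the motif in a 5′ UTR and 0.589% in a 3′ UTR. A match is a sequence description and does not measure binding.

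Libraries held 588063 to 2002947 counts, lowest in ALDHbr 2. ALDHbr 3 and ALDHbr 5 stood apart in detecting 24722 and 25377 genes, against 17044 to 21209 in the other libraries, so results were also computed without both. Lung markers were abundant, with Scgb1a1 of club cells at a mean of 23490 CPM (counts-per-million, a gene's counts scaled to the same library total) and Sftpc of alveolar type 2 cells at 21873 CPM. Levels below are CPM over the tested genes after TMM scaling. Reads came from the 3′ end of each transcript, so a count stands for a transcript end and levels were compared between genes without a length correction. All 7 members passed the low-count filter.

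Ferritin heavy chain was by far the most abundant member, and neither ferritin chain differed between the transfer groups beyond its spread. Fth1 stood at 5297, 7597, 7102, 7403 and 7121 CPM in ALDHbr 1 to 5, and at 5771, 4901, 6702, 7163 and 7241 CPM in ALDHdim 1 to 5. The groups overlapped over most of their range, with the lowest values in ALDHdim 2 and ALDHbr 1. It ranked 12th of the 10844 tested genes by mean level and took 0.485 to 0.747% of all counts in a library. The mean was 6904 ± 922 CPM in ALDHbr and 6355 ± 1002 CPM in ALDHdim (SD, n = 5 each), a fold of 1.09 with a 95% interval from 0.845 to 1.40.

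The light chain Ftl1 stood at 151, 258, 276, 270 and 292 CPM in ALDHbr 1 to 5, and at 196, 138, 228, 300 and 275 CPM in ALDHdim 1 to 5. The same libraries, ALDHdim 2 and ALDHbr 1, were lowest, and the groups overlapped. Each of these 2 libraries had the most counts of its group (2002947 and 1522283). ALDHdim 5, with 1817519 counts, was not low, and a relation to depth was not tested. Its fold was 1.10 (95% interval 0.803 to 1.49). The log2 difference, 0.13 over all libraries, was −0.01 when ALDHdim 2 was left out and −0.01 when ALDHbr 3 and 5 were.

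Between 23.9 and 35.5 Fth1 counts were recorded for each Ftl1 count, and this ratio did not separate the groups. The difference in log2 ratio was −0.02 (exact two-sided permutation p = 0.83, adjusted p = 0.95 over 3 ratios, n = 5 each, where the smallest possible p is 0.0079). The ratio depends on how reads from near-identical copies were handled, which the sources used here do not say. Of the 320 windows of 81 bases, the read length, near the 3′ end of Ftl1, 53.8% occur unchanged in another annotated gene, among them the copies Ftl1-ps1 and Ftl1-ps2. For Fth1 the share was 3.44%, and for the other 5 members 0%. The genes that share windows with Ftl1 held 187 counts in all 10 libraries, or 6.33% of the 2951 counts of Ftl1. Among them, Gm22133 overlaps Ftl1 itself on the same strand and is absent from the count table. Its windows are not those of a separate copy, and its part in the 53.8% was not separated. The 3 copies whose symbols start with Ftl (Ftl1-ps1, Ftl1-ps2 and Ftl2-ps) held 121 counts. The Ftl1 level and the ratio are therefore uncertain. A low Ftl1 transcript level and Ftl1 reads counted elsewhere or dropped cannot be told apart.

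**Figure D1:**
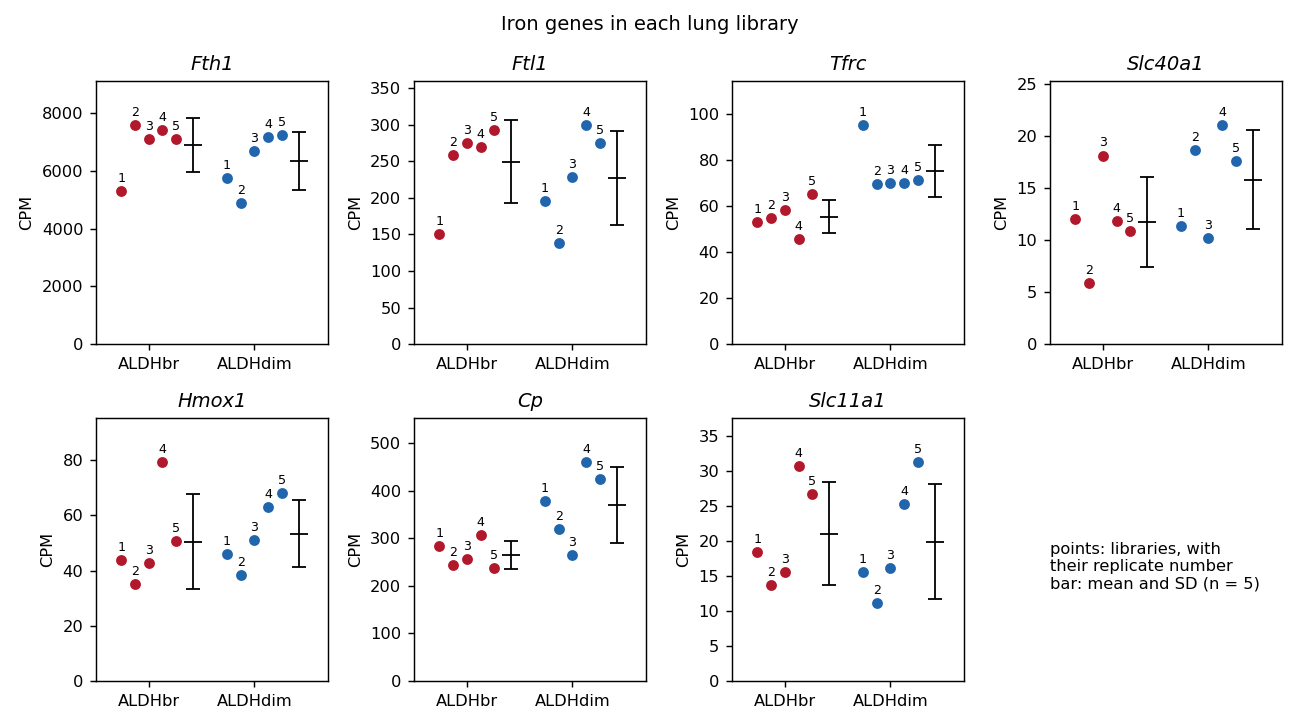
Level of each of the 7 iron genes in CPM (vertical axes, from 0) in every library, by transfer group, with the replicate number above each point and the group mean and SD (n = 5) beside it. For Tfrc all 5 ALDHbr libraries, at most 65.0 CPM, lie below all 5 ALDHdim libraries, at least 69.6 CPM, and the groups overlap for the other 6 genes.

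Tfrc, the transferrin receptor through which cells take up iron, was the 1 member whose groups did not overlap. It stood at 53.2, 54.8, 58.2, 45.6 and 65.0 CPM in ALDHbr 1 to 5, and at 95.1, 69.6, 69.7, 69.9 and 71.4 CPM in ALDHdim 1 to 5. Every ALDHbr library was below every ALDHdim library, and 4 of the 5 ALDHdim values lay within 2 CPM of each other, with ALDHdim 1 above them. Such separation in either direction was seen for 0.535% of tested genes (58 of 10844), with ALDHbr lower for 0.286% and with ALDHbr higher for 0.249%. Random labels would separate the groups of 5 for a gene with a probability of 0.0079, so this share is not above chance. The Tfrc means were 55.4 ± 7.08 and 75.2 ± 11.2 CPM, a fold of 0.735 with a 95% interval from 0.595 to 0.910.

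The Tfrc difference did not pass the threshold once all genes were considered. Its log2 difference was −0.44 (SE 0.15), with an unadjusted p of 0.0073 and an adjusted p of 0.99925 by edgeR's quasi-likelihood test with Benjamini-Hochberg adjustment over 10844 genes. Without ALDHdim 1, the highest library, the log2 difference was −0.35 (unadjusted p = 0.029). The groups also did not overlap with DESeq2 size factors or as CPM of all counts (46.0 to 62.0 against 66.8 to 95.6).

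Cp, which encodes the copper-containing ferroxidase ceruloplasmin, had a lower mean in ALDHbr recipients by a similar fold. It stood at 283, 244, 256, 308 and 237 CPM in ALDHbr 1 to 5, and at 378, 319, 265, 461 and 426 CPM in ALDHdim 1 to 5. All ALDHdim libraries but ALDHdim 3 lay above the highest ALDHbr library. The means were 266 ± 29.4 and 370 ± 79.2 CPM, a fold of 0.720 with a 95% interval from 0.573 to 0.904. The log2 difference was −0.47 (SE 0.16; unadjusted p = 0.0073, adjusted p = 0.99925 by the same edgeR test). Leaving out ALDHbr 3 and 5 gave −0.40 (unadjusted p = 0.055). The gene Hps3 overlaps Cp on the opposite strand and held 316 counts against 4244 for Cp. Whether counting used strand is not stated, so reads of the 2 genes may be mixed.

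Slc40a1, which encodes ferroportin, the iron exporter of cells, was the least abundant member. It stood at 12.03, 5.87, 18.1, 11.8 and 10.8 CPM in ALDHbr 1 to 5, and at 11.4, 18.7, 10.2, 21.1 and 17.6 CPM in ALDHdim 1 to 5. ALDHdim 2 and ALDHdim 4 were above every ALDHbr library, and the other 3 ALDHdim libraries lay within the ALDHbr range. These levels rest on 3 to 37 counts per library, and the 95% interval of the fold ran from 0.502 to 1.13 around 0.753. The log2 difference was −0.41 (SE 0.28, unadjusted p = 0.16), close in size to those of Tfrc and Cp with a wider error.

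Hmox1 and Slc11a1, both genes of macrophages that process ingested cells, had similar means in the 2 groups and differed more from library to library within a group. Hmox1, the inducible heme oxygenase, stood at 43.7, 35.2, 42.7, 79.5 and 50.8 CPM in ALDHbr 1 to 5, and at 46.1, 38.3, 51.0, 63.2 and 68.1 CPM in ALDHdim 1 to 5. In both groups the library numbered 2 was the lowest. The fold was 0.970 with a 95% interval from 0.71 to 1.33, and the sign of the difference turned when any of 5 single libraries was left out.

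Slc11a1, the natural resistance protein NRAMP1 that pumps metal ions out of phagosomes, stood at 18.4, 13.7, 15.5, 30.7 and 26.7 CPM in ALDHbr 1 to 5, and at 15.6, 11.1, 16.2, 25.3 and 31.3 CPM in ALDHdim 1 to 5. Libraries 4 and 5 of each group were high and the other 3 of each were low. The fold was 1.10 with a 95% interval from 0.716 to 1.69. The sign turned without ALDHbr 4 (log2 difference −0.04) or without ALDHdim 2 (−0.04), against 0.14 over all libraries.

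None of the 7 members passed the adjusted threshold of 0.05 in edgeR, where 0% of all tested genes passed, and none did in DESeq2 or limma-voom, where the count over all genes was also 0. At an unadjusted p under 0.05 there were 2 members, Tfrc and Cp, by each of the 3 tools, against 3.71% of all tested genes (402 of 10844) in edgeR, 1465 of 33347 genes in DESeq2 and 690 of 10844 in limma-voom. That background depended on ALDHbr 1, without which 1141 of 11024 genes had an unadjusted p under 0.05 in edgeR, with 2 members still among them. Of the members, 3 had higher and 4 lower estimates in ALDHbr recipients, with a median log2 difference of −0.04. Over all tested genes 5628 estimates were higher and 5216 lower, with a median of 0.01. The estimates of Tfrc, Slc40a1 and Cp lay between −0.47 and −0.41, and those of the ferritin chains, Hmox1 and Slc11a1 between −0.04 and 0.14.

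**Figure D2:**
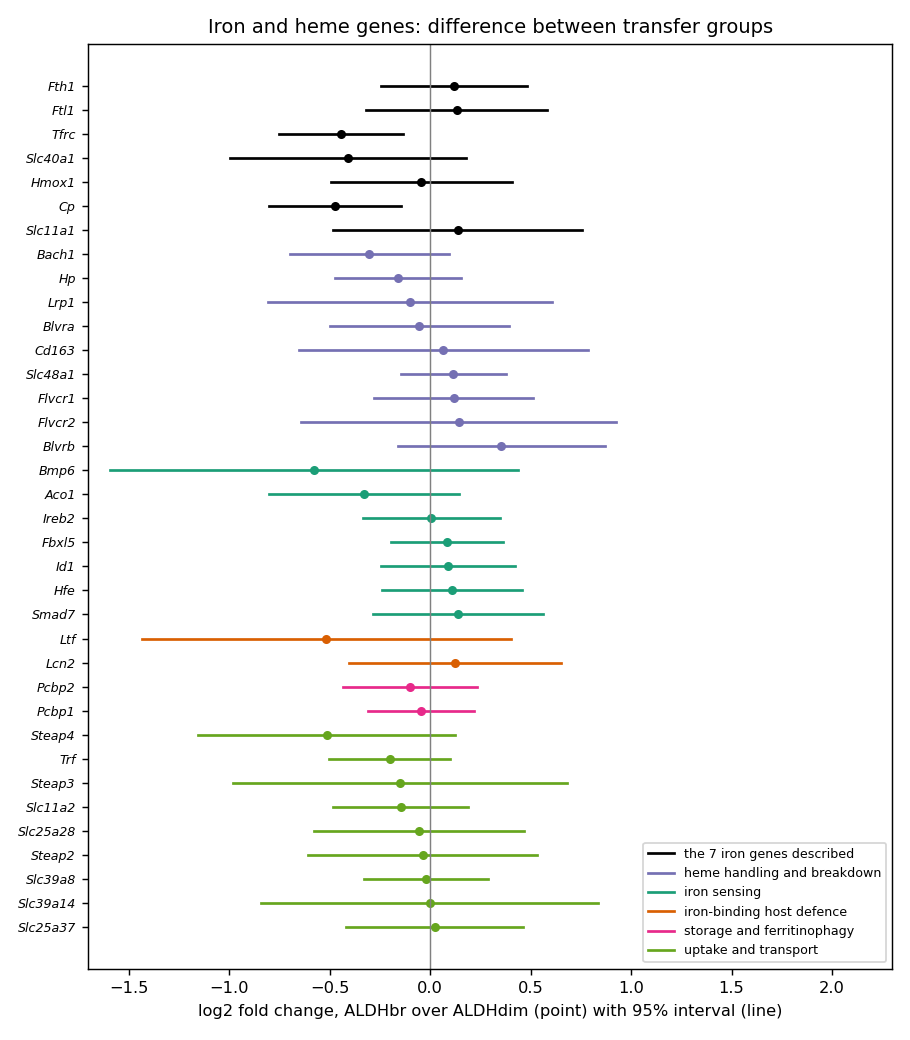
Log2 difference, ALDHbr over ALDHdim (horizontal axis; points), with 95% intervals (lines), for the 7 members and the 29 other iron and heme genes tested, coloured by role. The intervals of Tfrc and Cp are the ones that leave out 0 before adjustment, and no gene passed after it.

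Uptake was also set against storage within each library, which needs no scaling between libraries. Per 1000 ferritin counts (Fth1 and Ftl1 together), Tfrc counts ran from 5.95 to 9.77 in ALDHbr and from 9.36 to 15.9 in ALDHdim libraries, with geometric means of 7.75 and 11.5. The groups overlapped by the single library ALDHbr 1, which had the lowest ferritin level of its group. The difference in log2 ratio was −0.56, a fold of 0.677 (exact two-sided permutation p = 0.024, adjusted p = 0.071 over 3 ratios, n = 5 each). This ratio uses the same Tfrc counts as the comparison above and adds no independent samples. Without ALDHbr 1 the log2 difference was −0.65 and the adjusted p 0.048 by the same exact permutation test. As ALDHbr 1 was the overlapping library, leaving it out separates the groups by construction, and the lower p adds no support. Without any other single library the adjusted p by that test ran from 0.095 to 0.14. Without ALDHbr 3 and 5 the log2 difference was −0.63 and the adjusted p 0.32, with fewer assignments and so a larger smallest possible p.

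Export against uptake showed no separation. Slc40a1 counts ranged from 0.107 to 0.311 per Tfrc count in ALDHbr and from 0.119 to 0.301 in ALDHdim libraries. The log2 difference was −0.02 (exact two-sided permutation p = 0.95, adjusted p = 0.95, n = 5 each), and its sign turned when any of 5 single libraries was left out.

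**Figure D3:**
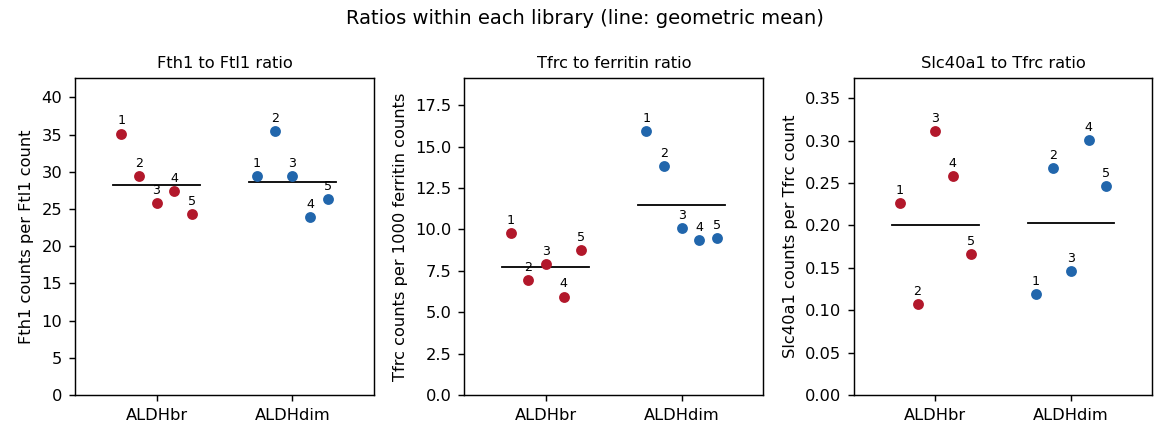
Ratios of counts within each library (vertical axes, from 0) by transfer group, with replicate numbers and the geometric mean as a line. Tfrc per 1000 ferritin counts is at 5.95 to 9.77 in ALDHbr and 9.36 to 15.9 in ALDHdim, while the other 2 ratios overlap between the groups over most of their range.

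Among the other genes of iron and heme handling no difference passed the test. Of all 10844 tested genes, 5628 had higher and 5216 lower estimates in ALDHbr recipients. Of 44 listed symbols, in which Hfe2 and Hjv name the same gene, 29 were tested. Of these, 12 had higher and 17 lower estimates, with a median log2 difference of −0.04. None passed in either direction in edgeR, DESeq2 or limma-voom, and at an unadjusted p under 0.05 there were 0 of 29 in edgeR, 1 of 29 in limma-voom and 1 of 41 in DESeq2, which was run without the filter. Without ALDHbr 1 there were 3 of 29 in edgeR. Among the 9 tested genes of uptake and transport, 8 had lower estimates, from −0.52 to 0.02 in all. The median of the 9 was −0.06, and the weakest of the lower estimates was −0.003. The lowest was Steap4, a metalloreductase that prepares iron for import, at 15.7 ± 5.66 against 24.5 ± 11.7 CPM (−0.52, SE 0.30, unadjusted p = 0.11). Trf, the plasma iron carrier that Tfrc binds, stood at 241 ± 43.0 against 278 ± 34.3 CPM (−0.20, SE 0.14).

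Pcbp1 and Pcbp2, chaperones that deliver iron to ferritin, differed by −0.05 and −0.10, less than their SE of 0.12 and 0.16. Of the 7 tested genes of iron sensing, 5 had higher and 2 lower estimates (median 0.08). Aco1, the iron regulatory protein that doubles as cytosolic aconitase, was at 44.1 ± 14.8 against 57.9 ± 15.2 CPM (−0.33, SE 0.22, unadjusted p = 0.16). Its partner Ireb2 was at 54.6 ± 13.6 against 55.1 ± 4.08 CPM, a log2 difference of 0.01 (SE 0.16). Smad7, an inhibitor of the signalling that induces hepcidin, differed by 0.14 (SE 0.20).

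In heme handling, 5 of 9 tested genes had higher and 4 lower estimates, with a median of 0.07. Bach1, the heme-sensing repressor of Hmox1, was at 33.2 ± 8.74 against 42.5 ± 6.95 CPM (−0.30, SE 0.19, unadjusted p = 0.12). Blvra, which reduces the biliverdin that heme oxygenase yields, differed by −0.05 (SE 0.21). Blvrb, a flavin reductase that also acts on another biliverdin isomer, was at 65.99 ± 16.8 against 50.9 ± 16.3 CPM (0.36, SE 0.24, unadjusted p = 0.16). Slc48a1, which carries heme out of the phagolysosome, was at 164 ± 20.2 against 151 ± 13.5 CPM (0.12, SE 0.12). The ferroxidase Heph and the hepcidin gene Hamp were too low to test, with 107 and 44 counts over all 10 libraries. So was the ferritin cargo receptor Ncoa4, with 53 counts. The iron-binding defence proteins lipocalin 2 (Lcn2) and lactoferrin (Ltf) differed by 0.12 (SE 0.25) and −0.52 (SE 0.41). Trf, Ireb2, Blvra, the Pcbp genes, Heph, Hamp, Ncoa4, Lcn2 and Ltf were named after their values were seen.

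Across libraries 2 pairs of members varied together. Pearson's r was computed on log2 CPM for all 21 pairs, with a permutation test of 100000 resamples, and 2 pairs had an adjusted p under 0.05. That test treats all libraries as exchangeable, although same-numbered libraries of the 2 groups tended to vary together (r from 0.06 to 0.37). The ferritin chains formed one pair, with r = 0.96 (permutation p = 0.00037, adjusted p = 0.0056) and Spearman's rho of 0.62 (permutation p = 0.060, adjusted p = 0.42). Without ALDHbr 1 and ALDHdim 2, the libraries farthest from the median of Fth1, r was 0.83. With group means subtracted r was 0.96. The rank measure did not pass adjustment.

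Hmox1 and Slc11a1 formed the other pair, with r = 0.89 (permutation p = 0.00053, adjusted p = 0.0056) and rho = 0.89 (permutation p = 0.0012, adjusted p = 0.025). Without ALDHbr 4 and ALDHdim 5, r was 0.80, and with group means subtracted it was 0.92. The remaining 19 pairs had r between −0.30 and 0.63. Tfrc and Cp, whose means were both lower in ALDHbr recipients, had r = 0.48 over all libraries (permutation p = 0.16, adjusted p = 0.42; rho = 0.58, permutation p = 0.088, adjusted p = 0.46) and −0.18 once group means were subtracted.

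**Figure D4:**
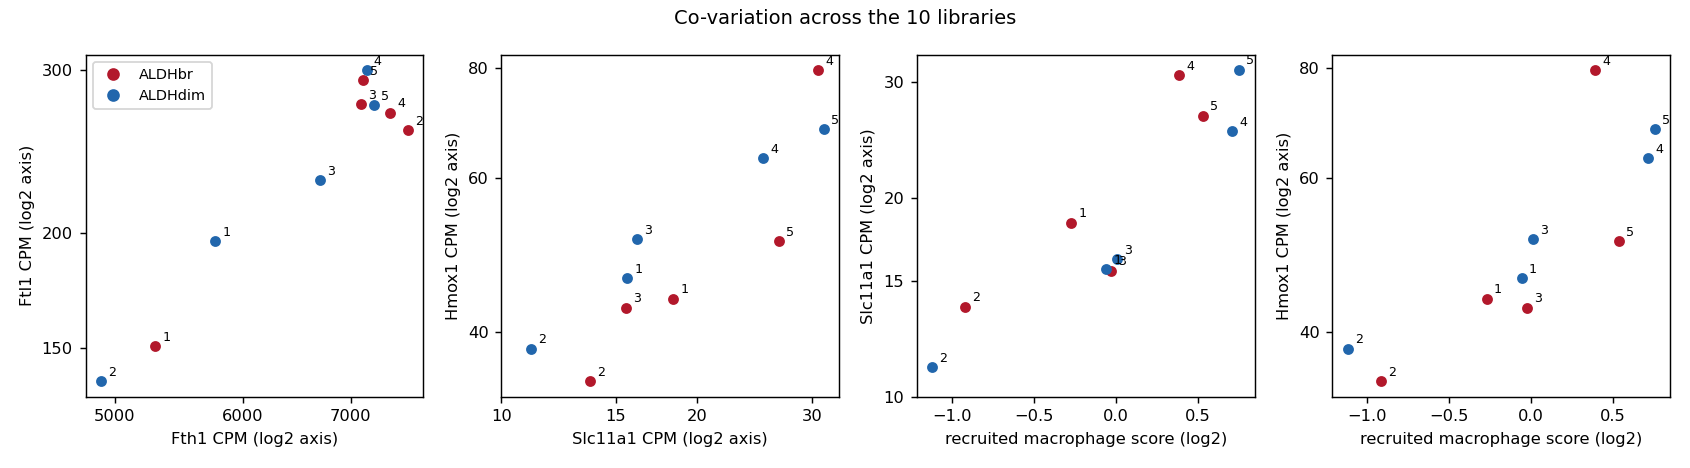
Each point is a library (replicate number beside it) and colours mark the transfer groups, with CPM on log2 axes and the score of recruited macrophage genes in log2 units on a linear axis. From left to right, Ftl1 against Fth1, Hmox1 against Slc11a1, Slc11a1 against the score and Hmox1 against the score, with r of 0.96, 0.89, 0.90 and 0.84.

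The Hmox1 and Slc11a1 pair moved with genes of monocytes and recruited macrophages. Scores of 7 marker lists were related to each member, 49 relations in all, of which 6 had an adjusted p under 0.05, every one with Slc11a1 or Hmox1. Slc11a1 followed the 12 genes of monocytes and recruited macrophages (Apoe, C1qa, Csf1r and others) with r = 0.90 (permutation p = 0.00042, adjusted p = 0.011; rho = 0.87, permutation p = 0.0023, adjusted p = 0.036), and r = 0.85 without ALDHbr 2 and ALDHdim 2. Hmox1 followed the same score with r = 0.84 (permutation p = 0.0032, adjusted p = 0.032; rho = 0.85, permutation p = 0.0030, adjusted p = 0.036), and r = 0.75 without those libraries. With group means subtracted r was 0.92 for Slc11a1 and 0.83 for Hmox1.

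The same pair ran opposite to epithelial genes. Slc11a1 had r = −0.93 with the 9 genes of alveolar type 2 cells (permutation p = 0.00046, adjusted p = 0.011; rho = −0.87, permutation p = 0.0023, adjusted p = 0.036) and r = −0.87 with the 8 genes of airway secretory cells (permutation p = 0.00099, adjusted p = 0.016; rho = −0.90, permutation p = 0.00089, adjusted p = 0.036). Without the 2 libraries farthest from the median of each score, r was −0.91 and −0.84. Hmox1 had r = −0.85 with the alveolar type 2 genes (permutation p = 0.0024, adjusted p = 0.029; rho = −0.77, permutation p = 0.013, adjusted p = 0.091), and −0.78 without the 2 farthest. Slc11a1 also had r = 0.79 with 11 genes of dividing cells (permutation p = 0.0048, adjusted p = 0.039; rho = 0.82, permutation p = 0.0059, adjusted p = 0.058), which was 0.60 without ALDHbr 2 and ALDHdim 2. The scores were not independent of each other. Libraries 4 and 5 of each group had the highest recruited macrophage scores (0.39 to 0.75) and the lowest alveolar type 2 scores (−0.50 to −0.25). These relations are therefore not separate lines of evidence. In whole lung, fewer cells of a type and less RNA per cell cannot be told apart.

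Another 7 relations had an unadjusted permutation p under 0.05 and did not pass adjustment, with adjusted p from 0.13 to 0.19. Hmox1 had r = −0.71 with airway secretory genes and 0.71 with dividing cell genes, the second 0.43 without ALDHbr 2 and ALDHdim 2. Ftl1 had r = 0.68 with the recruited macrophage genes, −0.65 with alveolar type 2 genes and 0.63 with dividing cell genes. Both ferritin chains ran opposite to neutrophil genes, Fth1 with r = −0.70 and Ftl1 with r = −0.63. Without ALDHdim 2 these 2 values were −0.33 and −0.19. Without the same library Ftl1 had r = 0.37 with dividing cell genes, 0.48 with recruited macrophage genes and −0.57 with alveolar type 2 genes. Genes of alveolar macrophages ran the other way from those of recruited macrophages, with r = −0.61 for Hmox1 (permutation p = 0.062, adjusted p = 0.19; rho = −0.60, permutation p = 0.072, adjusted p = 0.24) and −0.60 for Slc11a1 (permutation p = 0.065, adjusted p = 0.19; rho = −0.54, permutation p = 0.11, adjusted p = 0.35), and did not pass. Without ALDHbr 2 and ALDHbr 5 these were −0.57 and −0.48. All 36 relations with an unadjusted p of 0.05 or more had r between −0.63 and 0.54.

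Marker sums overlapped between the transfer groups. The mean scores of 2 lists differed by about as much as Tfrc and Cp did, with a wide spread within ALDHdim. The 12 genes of monocytes and recruited macrophages summed to 1029 to 2870 CPM of all counts in ALDHbr and to 926 to 3397 in ALDHdim libraries, with Apoe giving 47.5% of their counts. The 12 genes of alveolar macrophages summed to 739 to 1520 and 1157 to 1401 CPM, and the 7 of erythrocytes to 4415 to 13805 and 1678 to 13537 CPM. The 9 of neutrophils summed to 221 to 373 and 225 to 1086 CPM, with ALDHdim 2 highest by score. No gene of the 7 lists was at 0 over all libraries. The mean log2 score, ALDHbr minus ALDHdim, was −0.52 for neutrophil genes and 0.51 for erythrocyte genes. The SD of these scores within ALDHdim was 0.65 and 1.19. For neutrophil genes ALDHdim 2 stood at 1.31, and for erythrocyte genes ALDHdim 4 and 5 stood at −1.68 and −1.44. The part of these 2 lists in the Tfrc and Cp differences was not tested. Tfrc had r between −0.24 and 0.33 with the 7 scores, and Cp between −0.59 and 0.43. The lowest Cp value was with erythrocyte genes (permutation p = 0.067, adjusted p = 0.19; rho = −0.30, permutation p = 0.41, adjusted p = 0.62), and without ALDHdim 4 and ALDHdim 5 it was 0.45.

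**Figure D5:**
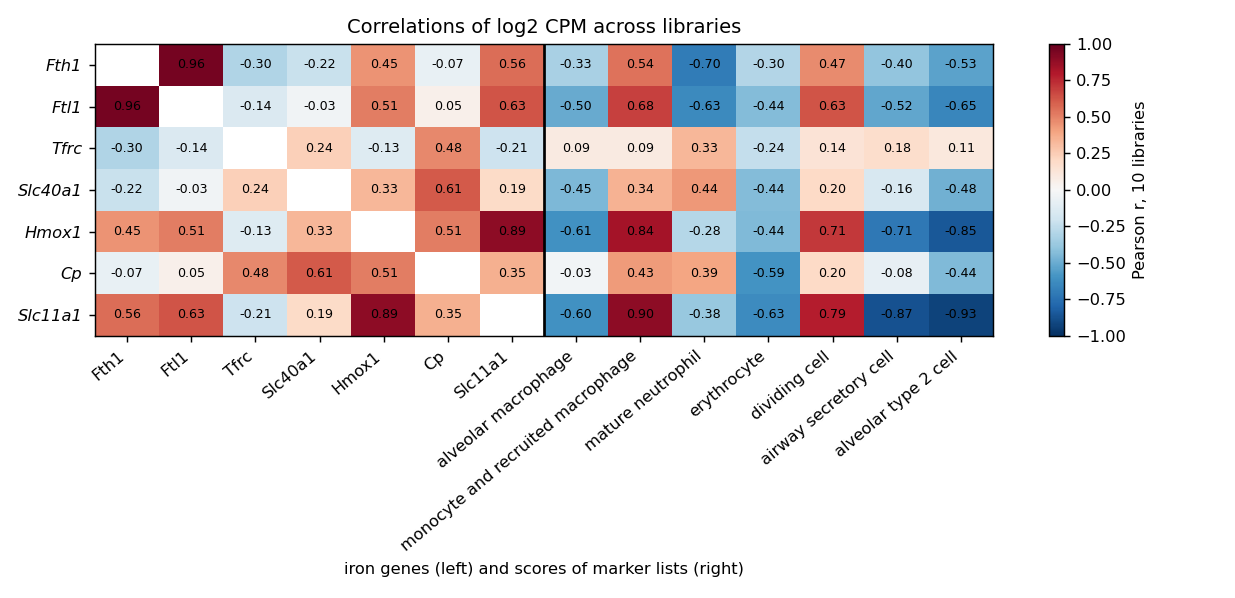
Pearson's r of log2 CPM over 10 libraries between the 7 iron genes (rows) and the same genes (left columns) or the scores of 7 marker lists (right columns). The Fth1 and Ftl1 pair is at 0.96 and the Hmox1 and Slc11a1 pair at 0.89, and the Slc11a1 and Hmox1 rows reach 0.90 and 0.84 with recruited macrophage genes and −0.93 and −0.85 with alveolar type 2 genes.

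The genes outside the 7 members whose levels over the 10 libraries were most like each member differed between members. For each ferritin chain the closest of all tested genes was the other chain (r = 0.96). For Slc11a1 these were Apoe (r = 0.97), the macrophage apolipoprotein, Tlr2 (r = 0.96), a receptor for bacterial lipoproteins, and Saa3 (r = 0.96), an acute-phase protein that ran from 3.53 to 133 CPM. Apoe is also 1 of the 12 genes of the recruited macrophage list, so it repeats part of that relation. For Hmox1 the nearest genes were Sorcs2 (r = 0.95), Spi1 (r = 0.95), the transcription factor PU.1 of myeloid cells, and the immunoglobulin light chain gene Iglc1 (r = 0.95). For Fth1 they were Hint3, Ifi27l2a and Ssr4 (r = 0.96, 0.95 and 0.95), and for Ftl1 Atp6v0e, Jpt2 and Dclk1 (r = 0.95 each). Tfrc had no gene as close, with Klhl23, Manbal and Sucla2 at r = 0.87, 0.87 and 0.83. For Cp the nearest were Tpmt, Psmd1 and Pls3 (r = 0.96, 0.93 and 0.93), and for Slc40a1 Ube4a, Nipbl and Phf10 (r = 0.94, 0.93 and 0.92). These were picked from all tested genes other than members and predicted genes, over 10 libraries, and describe likeness only.

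The SD of log2 CPM over the 10 libraries was 0.22 for Fth1, 0.29 for Tfrc, 0.34 for Cp, 0.36 for Hmox1, 0.40 for Ftl1, 0.48 for Slc11a1 and 0.49 for Slc40a1. This spread includes counting error, which is larger for genes of few counts. The biological coefficient of variation fitted by edgeR, which leaves counting error out, was 14.04% for Tfrc, 18.8% for Cp, 19.0% for Slc40a1, 20.6% for Fth1, 21.5% for Hmox1, 24.1% for Ftl1 and 27.3% for Slc11a1, against 19.7% in common over all tested genes. It also leaves out the difference between the transfer groups, which the SD includes, and is drawn toward the trend of genes of similar level. The 2 measures therefore need not order the members alike. Between the lowest and highest library Fth1 spanned 1.55-fold and Slc40a1 3.59-fold.

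On GRCm38, Fth1 lies on chromosome 19 from 9980598 to 9985098, Ftl1 on chromosome 7 from 45457944 to 45459884, Tfrc on chromosome 16 from 32608920 to 32632794 and Slc40a1 on chromosome 1 from 45908068 to 45926523. Hmox1 lies on chromosome 8 from 75093621 to 75100589, Cp on chromosome 3 from 19957054 to 20009145 and Slc11a1 on chromosome 1 from 74375195 to 74386062. GENCODE M21 gives these as the bounds of each gene, and the table holds 1 count per gene and library.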

How the data were processed

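RNA was read from transcript 3′ ends with pooled, barcoded BRB-seq libraries, per the labels' protocols. HISAT2 2.2.1, Trim Galore 0.6.7, UMI-tools, DESeq2 and featureCounts 2.0.1 are named in the submitters' processing notes beside GRCm38 and GRCh38, without their roles. The authors deposited raw counts per gene, not normalized. The sources used here do not say whether molecular identifiers were collapsed, strand was used or reads with several matches were kept. All 33347 gene identifiers were found in GENCODE M21.

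The 10844 genes kept by filterByExpr (minimum count 10) were tested with edgeR 4.0.16 after TMM scaling in R 4.3.3 (quasi-likelihood, robust), calling genes at a Benjamini-Hochberg adjusted p under 0.05. The script was tested on simulated data. Log2 CPM used a prior count of 2, and a list score is the mean of centred log2 CPM over its tested genes. Ratios were tested by exact permutation, and correlations with permutations (scipy 1.17.1). Alternatives were other scalings and filters, DESeq2 1.42.0, limma-voom (limma 3.58.1), the replicate number as a block, gene removal, ferritin copies added to the parent and each library left out. Named genes are the 7 members, of the other iron genes the 3 of smallest p in each direction, and the 3 genes most correlated with each member, leaving out members and predicted and clone names. The members and lists were chosen with earlier results of these data known.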

Additional observations from a re-analysis of the deposited data

Results flagged for a closer look

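Among the 7 genes and 3 ratios, each looked at in both groups (20 sets of 5 values), 3 sets held 1 library separated from its nearest neighbour by over 0.71 of that set's range. About 1 set in 20 is picked out this way by chance alone. In ALDHbr 1, Fth1 stood at 5297 CPM while the remaining ALDHbr libraries held 7102 to 7597 CPM (gap 0.785 of the range). The same library had Ftl1 at 150.7 CPM, with the rest of its group between 258 and 292 CPM (0.759). In ALDHdim 1, Tfrc stood at 95.12 CPM and the rest of its group between 69.6 and 71.4 CPM (0.929).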

How the results depend on the processing

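The count of genes past the threshold, 0, was 185 with no low-count filter and 0 under each other alternative. The counts of members and of other iron genes past the threshold were 0 under each alternative run. Tfrc stayed lower in ALDHbr, with log2 differences from −0.56 to −0.44 over the alternatives and from −0.52 to −0.35 when single libraries were left out, and Cp likewise (−0.53 to −0.40, and −0.57 to −0.39). Their smallest adjusted p were 0.17 and 0.060, both with no filter. The median of all genes was 0.22 there and 0.28 with DESeq2, against 0.01 in the main fit. Those 2 medians cover 33347 genes, including genes too low for the filter, and are no reference for Tfrc (−0.51 and −0.46). Without the filter the ferritin chains also moved down, Fth1 from 0.12 to 0.046 and Ftl1 from 0.13 to 0.058. Hmox1 changed sign with limma-voom (0.058) and without ALDHbr 3 and 5 (0.040), and ran from −0.28 to 0.072 when single libraries were left out. Ftl1 was −0.012 without ALDHbr 3 and 5 and ran from −0.0060 to 0.27, Slc11a1 from −0.043 to 0.39. The Fth1 to Ftl1 ratio was 0.0896 (log2) without ALDHbr 3 and 5 and ran from −0.10 to 0.053, the Slc40a1 to Tfrc ratio from −0.21 to 0.21. The Tfrc to ferritin ratio ran from −0.65 to −0.44. Causes were not tested.

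With the replicate number as a block, Tfrc differed by −0.45 and Cp by −0.46, 0 genes passed, the Tfrc to ferritin ratio was −0.56 (exact sign-flip p = 0.0625, the smallest 5 pairs can give), and 727 genes had an unadjusted p under 0.05 against 402, with 3 of the 29 other iron genes against 0. Without single libraries that count of genes ran from 272 (ALDHbr 3) to 1141 (ALDHbr 1). Same-numbered libraries correlated in their deviations from group means (0.06 to 0.37), with 4 of 5 pairs above 0.1. Of the 5 libraries in each group, 3 ALDHbr and 4 ALDHdim libraries correlated best with their own number. The numbers may therefore mark something shared between the groups, which the labels do not state, and the main tests did not use them. Permutation p-values of correlations would then be too small, and by how much was not tested. The members with the fewest counts were Slc40a1 (3 to 37 per library) and Slc11a1 (7 to 57), and how far depth limits them was not tested.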
